A study of Arabidopsis thaliana with 12 samples.

Results

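AT4G31530 is a gene of Arabidopsis thaliana that was read here through 1 probe assigned to it alone, probe 3215, out of 3439 probes in the deposited table. It was chosen by its intensities in these same samples, which were high in the wild type and lower in the mutant atc6, so the difference between the genotypes is described below without a test. The samples were 6 of the atc6 mutant, which lacks the protein cytochrome c6, and 6 of the wild type (WT), all 12 of total RNA from ecotype Columbia 0 plants raised on MS medium, a mineral medium for plant culture. The labels give no tissue, age or number of plants, nor how the atc6 allele was made. The samples numbered 1 and 2, 3 and 4, and 5 and 6 of a genotype varied together and were averaged as doublets, which left 3 doublets against 3. Nothing in the labels says whether doublets came from separate plants, so the spread between them may be technical.

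Cytochrome c6 is a small haem protein of the thylakoid lumen, the space inside the photosynthetic membranes of the chloroplast. In algae and cyanobacteria it can carry electrons to photosystem I in place of the copper protein plastocyanin, and the plant protein is its relative. Leaf RNA is dominated by a limited number of very abundant transcripts, many of which encode chloroplast proteins made in the cytosol, such as the light-harvesting proteins. On an array such transcripts give the brightest probes, and the position of a probe among them can be read within each sample without regard to the sample's overall scale.

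In the TAIR10.1 gene table AT4G31530 is a protein-coding gene on chromosome 4, with 2 transcripts and 2 proteins listed, and it carries no name other than its locus number. Its product is therefore not described here. In that table the gene overlaps its neighbour AT4G31540 (EXO70G1, a gene of the exocyst, the complex that tethers secretory vesicles). The strand that the probe reads is not given in the sources used here, so signal from either gene of the pair cannot be told apart. EXO70G1 had no probe of its own in the table.

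The deposited intensities of AT4G31530 were 20.1 and 21.1 in atc6 samples 1 and 2, 9.21 and 9.42 in atc6 samples 3 and 4, and 9.19 and 10.2 in atc6 samples 5 and 6. In WT they were 18.0 and 20.5 in samples 1 and 2, 22.8 and 24.1 in samples 3 and 4, and 24.4 and 26.7 in samples 5 and 6. As deposited the genotypes overlapped, because atc6 samples 1 and 2 were as high as the lower WT samples while the other 4 atc6 samples lay below every WT sample. Those 2 mutant samples are on another scale: their medians over all probes were 4.46 and 4.52, against 0.323 to 0.627 in the other 10 samples. Their bright end was also flat. The highest value in them was 1.5 and 1.52 times the 50th highest. It was 12.9 to 13.2 times the 50th highest in the other atc6 samples and 9.31 to 14.1 times in WT. Values stop at 100 in the table, which 6 samples reach (atc6 samples 3 to 6 and WT samples 3 and 4), so the multiples of these 6 are lower bounds. Each sample had from 4.94% to 7.82% of its probes at 0, but AT4G31530 was above 0 in all 12.

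**Figure D1:**
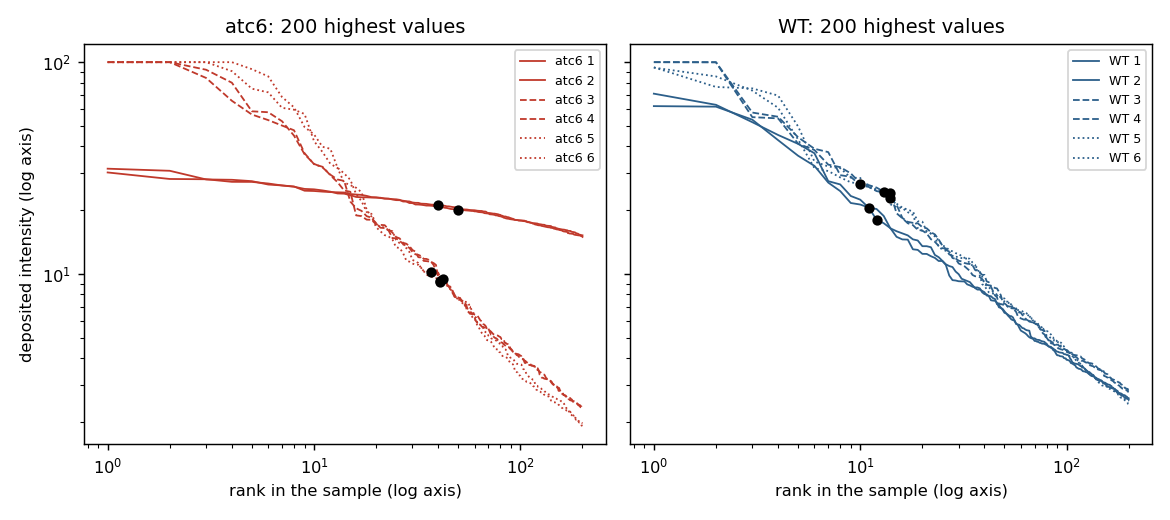
The 200 highest deposited intensities of each sample against their rank, both on log axes, for atc6 (left, red) and WT (right, blue); solid, dashed and dotted lines are samples 1 and 2, 3 and 4, and 5 and 6. Black points mark AT4G31530, which sits at ranks 37 to 50 in atc6 and 10 to 14 in WT, and the nearly flat solid red lines are atc6 samples 1 and 2.

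Ranked from the highest probe down, AT4G31530 stood at 50 and 40 in atc6 samples 1 and 2, at 41 and 42 in samples 3 and 4, and at 41 and 37 in samples 5 and 6. In WT it stood at 12 and 11, at 14 and 14, and at 13 and 10 in the same order of samples. Every atc6 sample thus placed it further down than every WT sample, and it stayed among the 50 highest of 3439 probes in all 12. Over doublets the rank averaged 41.8 ± 3.01 in atc6 and 12.3 ± 1.44 in WT (SD, n = 3 each), a difference of 29.5 places with an SE of 1.93. Without atc6 samples 1 and 2 the mutant mean was 40.3. In 178 of the 3329 probes with a value above 0 in some sample (5.35%), the 3 atc6 doublets all had a higher rank number than the 3 WT doublets. The gene was chosen for being among these, so nothing is read from that share.

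**Figure D2:**
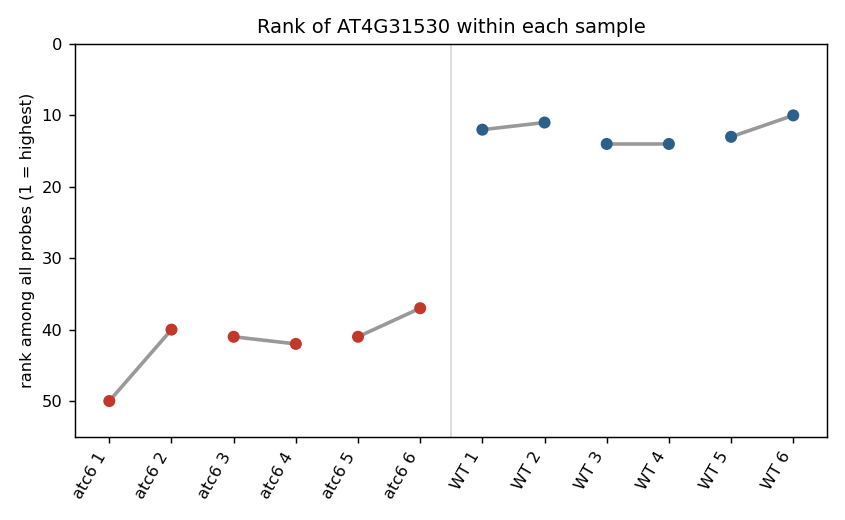
Rank of AT4G31530 among the 3439 probes of each sample, with 1 the highest value at the top of the axis; red points are the 6 atc6 samples, blue points the 6 WT samples, and grey lines join the samples of a doublet. The atc6 samples lie between 37 and 50 and the WT samples between 10 and 14.

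Relative to other bright probes the gene was also lower in each mutant sample. The bright probes were the 50 others with the highest mean rank over all 12 samples, so that neither genotype alone chose them. A low place in atc6 samples 1 and 2 could still leave a probe out, as for AT2G27290. That probe ranked 600 and 551 in them, 13 to 32 in the other atc6 samples and 4 to 9 in WT. AT4G31530 was at 1.06 and 1.06 times the bright-probe median in atc6 samples 1 and 2, at 0.696 and 0.726 times in samples 3 and 4, and at 0.800 and 0.820 times in samples 5 and 6. In WT it was at 2.03 and 2.22 times, at 2.08 and 2.15 times, and at 2.13 and 2.24 times the bright-probe median. In the mutant the gene was thus close to or below the typical bright probe, and in WT it was above 2 times that level in every sample. The flat bright end of atc6 samples 1 and 2 limits this comparison. Their highest values, 30.1 and 31.4, stood against bright-probe medians of 19.0 and 19.8, so no probe in them reached 2 times that median. On the log2 scale the ratio of the gene to the bright-probe median averaged -0.24 ± 0.29 in atc6 and 1.10 ± 0.025 in WT (SD, n = 3 doublets each). The difference was -1.33 ± 0.17 (SE), a ratio 2.52 times lower in atc6. Without atc6 samples 1 and 2 it was -1.50. Taken between doublets of the same number, it was -1.0 for samples 1 and 2, -1.57 for samples 3 and 4 and -1.43 for samples 5 and 6.

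The share of a sample's summed intensity that fell on AT4G31530 gave the same order. It was 0.101% and 0.105% in atc6 samples 1 and 2, 0.253% and 0.255% in samples 3 and 4, and 0.293% and 0.314% in samples 5 and 6, against 0.497% to 0.733% in WT. The first mutant doublet was the lowest here, whereas it was the highest mutant doublet relative to the bright probes. Set against the sample median, where the dim probes enter, the genotypes overlapped: the gene was at 4.51 to 31.5 times the median in atc6 and at 28.8 to 51.4 times in WT. On that scale atc6 samples 5 and 6, at 28.4 and 31.5 times, reached the level of WT samples 1 and 2, at 28.8 and 33.0 times. As a share of the sample's highest value the genotypes overlapped as well and the means ran the other way. The gene was at 67.0%, 9.32% and 9.69% of it in the 3 atc6 doublets and at 29.0%, 23.4% and 27.0% in the 3 WT doublets. The high first mutant doublet is that of the flat samples, and the highest value is the ceiling of 100 in the 6 samples named above. Rank, bright-probe ratio and summed share separated all samples, while the ratios to the median and to the highest value did not. For atc6 samples 1 and 2 the flat bright end fixed this on the bright-probe ratio and the summed share. Even their highest probe lay below the WT values of the gene on both of these scales. Only the rank was free to place them otherwise, but the flat bright end makes it sensitive in these samples. In atc6 samples 1 and 2 the probes at rank 12 had 24.4 and 24.3, and those at rank 50 had 20.1 and 20.6. In WT samples 1 and 2 the values were 18.0 and 20.2 at rank 12, and 6.66 and 6.54 at rank 50. Small differences in intensity thus moved a probe by many places in atc6 samples 1 and 2.

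**Figure D3:**
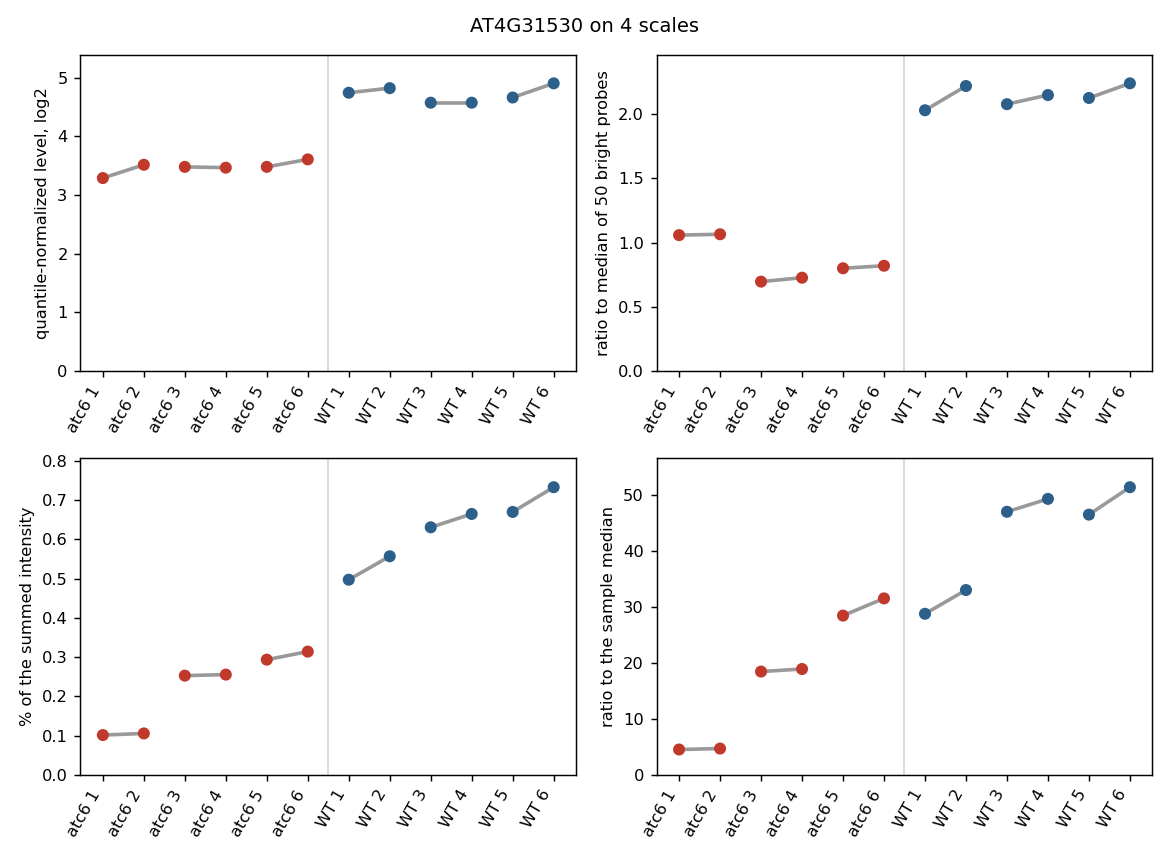
AT4G31530 in each sample on 4 scales: the quantile-normalized log2 level, the ratio to the median of 50 bright probes, the percentage of the summed intensity and the ratio to the sample median. Red points are atc6 samples, blue points WT samples and grey lines join doublets. The genotypes are apart on the first 3 scales and overlap at 28.8 to 31.5 times the median on the fourth.

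After quantile normalization, which gives all samples a shared distribution so that a level follows the rank, the log2 level of the gene was 3.29 and 3.51 in atc6 samples 1 and 2, 3.48 and 3.46 in samples 3 and 4, and 3.48 and 3.61 in samples 5 and 6. In WT it was 4.74 and 4.82, 4.57 and 4.57, and 4.66 and 4.90. The lowest WT sample was above the highest atc6 sample. In atc6 samples 1 and 2 this level rests on ranks at the flat bright end, where small differences in intensity are stretched. The mean difference was -1.24 ± 0.081 (SE from the SDs of 3 doublets each), or 2.36-fold lower in atc6. It was -1.51 when atc6 samples 1 and 2 were left out and -0.87 without any normalization, a setting in which the median probe was 0.66 higher in atc6. All 3 atc6 doublets lay below all 3 WT doublets for 179 of 3329 probes (5.38%), AT4G31530 among them by choice. In the whole table limma called 0 of 3329 probes at an adjusted p of 0.05 (0.0%), AT4G31530 included, with 167 (5.02%) at an unadjusted p under 0.05, and an unmoderated test per probe also called 0, with 139 unadjusted.

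The spread of AT4G31530 between doublets, pooled over the genotypes, was small for a bright probe. Its pooled SD on the normalized log2 scale was 0.099, against a median of 0.557 over the 50 bright probes, of which 1 had a smaller SD. Its ranks spanned 40 places over the 12 samples, against a median span of 90 places for the bright probes, and 12 of the 50 spanned fewer. In WT alone the SD of AT4G31530 was 0.121. Most bright probes had a larger SD there, but several had a smaller one, such as 0.030 for probe 1803 and 0.024 for probe 2085. In atc6 the SD was 0.071 for AT4G31530, 1.93 for probe 1803 and 1.06 for probe 2085. The atc6 SDs, the pooled SDs and the rank spans all include the flat atc6 samples 1 and 2. A choice by consistent difference favours a small spread, so these values are a description too. Within a doublet the repeats differed by at most 10 places in rank and by at most 0.24 in normalized log2 level, the first in atc6 samples 1 and 2 and the other in WT samples 5 and 6.

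Among the 50 bright probes, 5 were assigned to a single gene, 9 to several genes and 36 were not listed in the annotation. Their normalized differences reached from -1.15 to 1.21 with a median of -0.21, against a median of 0.04 over all 3329 probes. The values of 4 of the 50 reach the ceiling of 100 in some samples, among them probe 1803 at the -1.15 end, so these differences are not exact. AT4G31530 lay outside this range, at -1.24, but both choices favour that: the gene was picked for its fall, and a mean rank over both genotypes leaves out probes that fell far in atc6. Of the 50 other probes with the highest mean rank in WT alone, 2 had a more negative difference than AT4G31530, and the median was -0.44. AT2G27290, with WT ranks of 4 to 9, was lower by more, at 3.34 ± 1.57 in atc6 and 5.47 ± 0.40 in WT (SD, n = 3 doublets each), with ranks of 600 and 551 in atc6 samples 1 and 2 and of 13 to 32 in the other mutant samples. In 3 of the 50 all atc6 doublets lay below all WT doublets (probes 4141 and 910 and AT4G17070), and in 3 all lay above (probes 3505 and 3145 and AT1G62250). The count below is near the share in the whole table, 179 of 3329 probes (5.38%), and probes above were not counted there. Over all probes 27 had a more negative difference than AT4G31530, with a median mean rank of 1488, and 13 of them had a value of 0 in at least 1 sample.

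**Figure D4:**
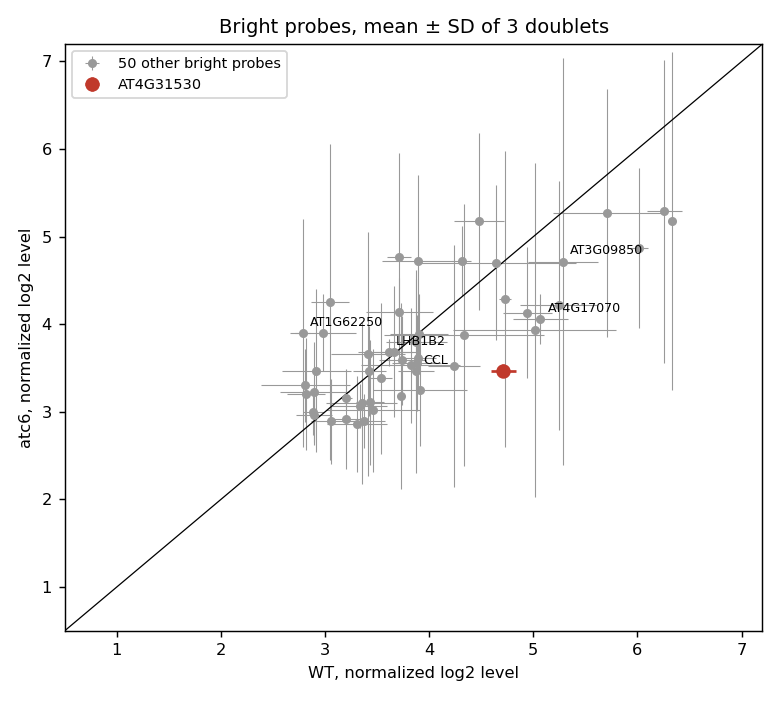
Normalized log2 level in atc6 (vertical) against WT (horizontal) for AT4G31530 (red) and the 50 other bright probes (grey), as means with SD bars over 3 doublets; the line marks equal levels and names mark probes of a single gene. AT4G31530 lies below the line at 3.47 in atc6 against 4.71 in WT, with short bars on both axes.

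Probes changed places with AT4G31530 between the genotypes. Probes 3499 and 4141, both without a listed gene, were above it in all 12 samples. Probes 621, 2689, 3505 and 3656, also unlisted, were above it in all 6 atc6 samples and below it in all 6 WT samples, and no probe did the opposite. Without atc6 samples 1 and 2 there were 16 probes that passed it in this way, 15 of them in the bright set. The gene was chosen for being lower in atc6, which favours changes of place in this direction, so nothing is read from these counts. The only single-gene probe of the 16 was LHB1B2 (AT2G34420), which encodes a light-harvesting protein of photosystem II. LHB1B2 ranked 23 to 72 in atc6 and 24 to 55 in WT, with a log2 difference of 0.07 ± 0.19 (SE).

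Among the 692 single-gene probes AT4G31530 stood at 12, 10, 9, 9, 6 and 6 in atc6 samples 1 to 6, and at 5, 5, 5, 5, 4 and 3 in WT samples 1 to 6. The genotypes did not overlap in this count either, although they came within 1 place of each other. In mean atc6 rank it was preceded by AT4G17070, LHB1B2 and AT1G62250, and in mean WT rank by AT2G27290, AT3G09850, AT4G17070 and PSBW (AT2G30570), a small subunit of photosystem II. Its position by mean rank was therefore 4 in atc6 and 5 in WT over all samples, and 6 over atc6 samples 3 to 6 alone. Without the first doublet its mean place among single-gene probes was 7.5 in atc6, against 4.50 in WT. In atc6 samples 1 and 2 AT2G27290, AT3G09850 and PSBW stood far below AT4G31530, at 551 to 600, 283 to 288 and 767 to 852, and in atc6 samples 3 to 6 all of them stood above it. The nearest single-gene probes after it in atc6 were CUTA (AT2G33740) and CCL (AT3G26740), with mean ranks of 63.2 and 89.5. In WT they were AT4G35660 and CCL, with mean ranks of 26.0 and 27.3. In atc6 the ranks of CCL, 10 to 242, enclosed those of AT4G31530, while in WT its ranks of 21 to 34 did not overlap with them.

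The annotation lists AT4G31530 on 1 further probe, 668, together with AT5G02240 and AT2G37660. That probe was dim, at ranks 405 to 1193 in atc6 and 615 to 1159 in WT. Its normalized log2 level was 1.34 ± 0.31 in atc6 and 1.31 ± 0.22 in WT (SD, n = 3 doublets each), a difference of 0.03 ± 0.22 (SE). The probe that shares AT4G31530 with other genes thus showed neither its brightness nor its difference. Which of the 3 genes it reads was not tested.

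In a list of 18 genes of NAD(P)-binding proteins, which holds both genes that share probe 668 and the protochlorophyllide reductases of chlorophyll synthesis (PORA, PORB and PORC), 2 had a probe of their own. AT1G32220 had a normalized log2 level of -1.06 ± 0.86 in atc6 and 0.32 ± 0.14 in WT, with its atc6 doublets all below its WT doublets. It was at 0 in atc6 samples 5 and 6, so that the size of its difference depends on the pseudocount. AT1G72640 was at 0.99 ± 0.44 in atc6 and 1.13 ± 0.19 in WT (SD, n = 3 doublets each). Neither passed limma's test over all probes. Both ranked far below AT4G31530, at rank 813 or further down in all samples. The 4 measured neighbours on chromosome 4 closest on either side were AT4G31470, AT4G31210, AT4G31930 and AT4G32060. In the same order they lie 6, 47, 52 and 71 genes away, and nearer genes had no probe of their own on that side. The differences of these 4 neighbours were -0.37 ± 0.41, -0.22 ± 0.30, -0.35 ± 0.81 and -0.24 ± 0.44 (SE), each smaller than its SE. Of the probes numbered next to 3215, 3214 and 3217 were unlisted and ranked 2165 to 3035 and 719 to 1057 in atc6, and 2574 to 2935 and 705 to 1003 in WT.

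Green-tissue transcripts were measured for 5 of 10 listed genes (LHB1B2, PSAN, PSBW, PSBY and PRK), at ranks from 5 to 2236. None of the listed root, flower or seed genes had a probe of its own, so the tissue of the samples could not be checked further.

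Likeness was measured as Pearson's r of the normalized log2 levels over the 12 samples, among 610 other single-gene probes above 0 in every sample. The median r was -0.05, with 0.66 at the 95th and -0.68 at the 5th percentile. The most alike were AT5G52530 (r = 0.94), AT4G17070 (0.88), AT1G67930 (0.85), AT5G65490 (0.83) and AT4G19900 (0.83). All 5 had their 3 atc6 doublets below their 3 WT doublets, with differences of -0.90, -1.01, -0.67, -0.23 and -1.15. The same held for 179 of all 3329 probes (5.38%). A choice by r to a gene with a step between the genotypes favours such probes, so nothing is read from this count. The points share doublets and the normalization. With each genotype's mean taken out, r was -0.12, -0.12, 0.29, 0.37 and 0.10 in the same order.

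AT4G17070 was the only one of these 5 that was also a bright probe. Its deposited intensities were 22.9 and 23.8, 13.0 and 12.7, and 18.6 and 16.7 in the atc6 doublets, against 27.0 and 27.4, 29.8 and 29.3, and 28.4 and 24.5 in the WT doublets. It ranked 15 to 30 in atc6 and 7 to 13 in WT, so that it too was lower in all mutant samples, and its normalized difference was -1.01 ± 0.22 (SE). AT4G17070 stood above AT4G31530 in every atc6 sample and in WT samples 1 to 5. In WT sample 6 it stood below, at 13 against 10.

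The probes least like AT4G31530 were CBL (AT3G57050), the cystathionine beta-lyase of methionine synthesis (r = -0.90), PRK (AT1G32060), the phosphoribulokinase of the Calvin-Benson cycle (-0.89), and AT5G38750 (-0.87). Their normalized differences were 0.57, 1.46 and 0.56. None of these genes passed limma's test over all probes. With the genotype means taken out, r was -0.55, 0.14 and 0.37, and only CBL kept its sign.

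**Figure D5:**
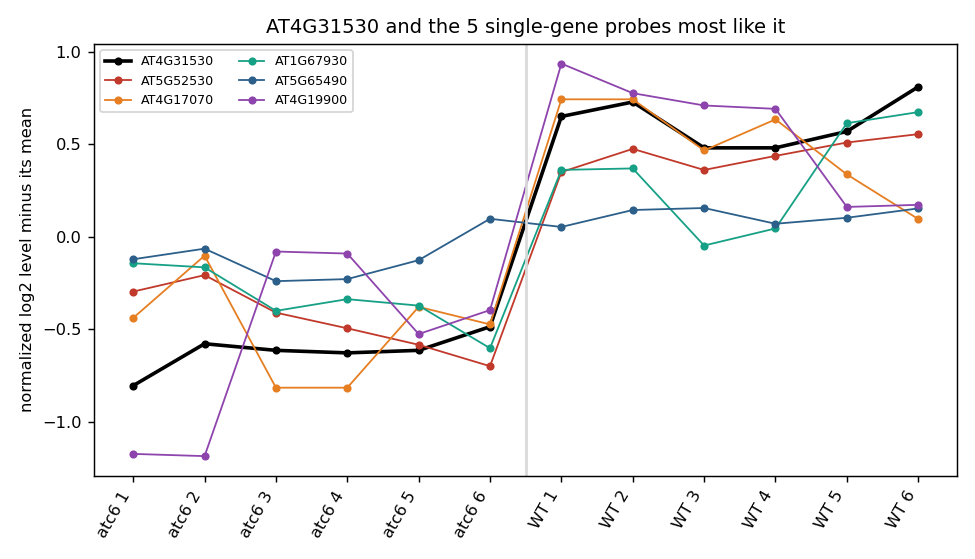
Normalized log2 level, less its mean over the 12 samples, of AT4G31530 (thick black line) and the 5 single-gene probes with the highest r to it, from 0.83 to 0.94, with atc6 samples left of the grey line and WT samples right of it. The shared feature is the step between the genotypes, and the lines cross within each genotype.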

How the data were processed

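The deposited table holds intensities on a linear scale between 0 and 100. The unit was judged by the values alone; what the authors did to the scanner signal, including background correction and scaling, is not given in the sources used. Gene names come from an annotation of the array platform that may be outdated: of 3439 probes, 692 have a single gene, 870 several and 1877 none listed. A gene ID match to the gene table of TAIR10.1 succeeded for 690 of the 692. The build behind the probes is not given in the sources used, so the table served for names and neighbouring genes only.

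Ranks were taken on the deposited values. For levels, 110 probes with no value above 0 were dropped, the rest quantile-normalized together, and log2 taken after adding 0.267 (a pseudocount equal to the 10th percentile of positive values), so log2 differences understate those of dim probes. Quantile normalization removes overall differences between samples. Deviations from the genotype mean correlated at 0.59 to 0.89 within the doublets, which were averaged. Same-numbered samples of the 2 genotypes correlated at 0.11 to 0.30, so a replicate block was also fitted. For averaged doublets it was 0.07 to 0.24. limma 3.58.1 (lmFit, eBayes, two-sided, Benjamini-Hochberg) in R 4.3.3 was fitted to all probes and tested on simulated data. Python 3.11.15 with pandas 2.3.3 was used otherwise.

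The gene, the lists and the tests were chosen with earlier results of these data known. Named genes are the single-gene probes most and least like it, in the bright set, beside it in rank or on the chromosome, or in the list of NAD(P)-binding proteins. The probes that changed places with it, those that differed in the bright set and the adjacent probe numbers were named after their values were seen. The number of arrays limits the precision.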

Additional observations from a re-analysis of the deposited data

How the results depend on the processing

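The log2 difference of AT4G31530, a gene chosen for being lower in atc6, was negative in every setting run, also relative to the bright probes. The share of the highest value, on which the means ran the other way, was not among these settings. The normalized log2 difference of -1.24 became -1.58 with samples scaled to a common median, -1.10 after cyclic loess, -0.87 on the values as deposited and -1.53 when samples 1 and 2 were omitted from atc6 and WT alike. Omitting a single sample or doublet gave values between -1.51 and -1.13. Relative to the bright probes it was -1.33, and -1.09 on quantile-normalized values, with -1.50 to -1.21 when doublets were left out. The mean rank was 8.67 in atc6 and 4.50 in WT among single-gene probes, and 40.3 to 43.3 in atc6 and 11.5 to 12.8 in WT with doublets left out. The share of probes with all atc6 doublets below all WT doublets, 5.38%, was 0.871% on the values as deposited. The number of probes called was 0 and became 1 with the pseudocount at the 1st percentile and 99 with samples entered separately, which treats repeats as independent. Omitting a sample or doublet gave 0 to 2 calls: 2 without atc6 samples 3 and 4, and 1 without WT samples 3 and 4 or WT sample 3 alone. With the replicate block on doublets the count of probes called was 0. In this balanced design a block cannot move the differences of -1.24 and -1.33. With the genotype means taken out, r turned to -0.12 for AT5G52530, -0.12 for AT4G17070, 0.14 for PRK and 0.37 for AT5G38750. Taking the means out removes the step between the genotypes, which entered the r by which these probes were chosen. Why the other values changed with the setting was not tested. Other normalizations for the share of probes were chosen after the data were seen.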
